A study of Mus musculus with 7 samples.

Results

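The miR-99/100 and miR-125 families were followed across the 7 miRNA arrays of a mouse sarcoma model of Rb depletion. Every row of the deposited table that comes from the hairpins mmu-miR-99a, mmu-miR-99b, mmu-miR-100, mmu-miR-125a or mmu-miR-125b was taken, whichever arm of the hairpin it measures, which gave 7 of the table's 252 mouse miRNAs: miR-99a, miR-99b, miR-99b*, miR-100, miR-125a-5p, miR-125a-3p and miR-125b-5p. The array carried 9 features for these hairpins, and the remaining pair, the 3′ arms miR-125b-1-3p and miR-125b-2-3p, was detected on 0 of 7 arrays and is not in the table. All cells descend from soft tissue sarcomas of p53-null mice on a C57BL/6 background. Control primary cells (2 arrays) carried a non-target shRNA, Rb-depleted primary cells (2 arrays) carried shRNA against Rb, and both were grown as monolayers. Rb-depleted secondary cells (3 arrays) were recovered from spheres that the Rb-depleted cells had formed and were returned to monolayer culture. No array held control cells taken through sphere culture, so in the comparison of secondary with control cells the depletion and the passage through spheres cannot be told apart. A miRNA array has no probe for the Rb messenger RNA, so the depletion itself could not be checked here.

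MicroRNAs guide a silencing complex to messenger RNAs mainly through their seed, the short stretch near the 5′ end. The miR-99/100 family is known for repressing Mtor, and miR-125, the vertebrate relative of the worm timing RNA lin-4, is known for repressing Lin28a and, through miR-125b, the p53 gene, which these cells lack. In vertebrates the families lie with let-7 in polycistrons, each a stretch of genome in which a miR-99 or miR-100 hairpin, a let-7 hairpin and a miR-125 hairpin follow one another.

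The mature sequences show why the 7 rows fall into groups. They are given from RefSeq (GRCm38.p6), 5′ to 3′, with the seed, bases 2 to 8, in capitals.
mmu-miR-99a: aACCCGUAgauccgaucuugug
mmu-miR-100: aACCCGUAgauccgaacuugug
mmu-miR-99b: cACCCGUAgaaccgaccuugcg
mmu-miR-125a-5p: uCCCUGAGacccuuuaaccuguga
mmu-miR-125b-5p: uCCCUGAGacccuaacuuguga
mmu-miR-99b*: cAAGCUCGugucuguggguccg
mmu-miR-125a-3p: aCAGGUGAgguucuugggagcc
The first 3 share the seed ACCCGUA. Counting from 1 at the 5′ end of miR-99a, miR-100 differs from it by U16A alone, and miR-99b differs by A1C, U11A, U16C and U21C. The miR-125 main arms share the seed CCCUGAG and are identical over their first 13 bases. The lesser arms, miR-99b* and miR-125a-3p, carry seeds that no other miRNA of the table shares, among the 198 of 252 whose names matched a RefSeq sequence. One further miRNA on the array has the miR-125 seed, miR-351-5p, shown here because it was not detected on every array and so is outside the table.
mmu-miR-351-5p: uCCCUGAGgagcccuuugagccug
Whether probes cross-hybridized between sequences this close was not tested.

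The hairpins lay in 3 polycistrons on the plus strand of NCBIM37 (mm9), the build named in the scanner files. On chromosome 9, Mir100 (chr9:41339508-41339587), Mirlet7a-2 (chr9:41344799-41344894) and Mir125b-1 (chr9:41390009-41390085) spanned 50578 bases, and all of them fell inside the non-coding gene D230004N17Rik without touching its exons. On chromosome 16, Mir99a (chr16:77599181-77599245), Mirlet7c-1 (chr16:77599902-77599995) and Mir125b-2 (chr16:77646518-77646588) spanned 47408 bases. Mir99a and Mirlet7c-1 overlapped Gm11146 on the opposite strand, in none of its exons. On chromosome 17, Mir99b (chr17:17967152-17967221), Mirlet7e (chr17:17967316-17967408) and Mir125a (chr17:17967767-17967851) were packed into 700 bases, with 94 and 358 bases between neighbours, and Mir125a overlapped an exon of Ncrna00085. Other annotated genes overlapped too: 2610203C20Rik at Mir125b-1, in none of its exons, and AC165361.1 at Mirlet7e, in an exon on the opposite strand. CT009696.2, CT009696.1 and CT025619.1 overlapped Mir100, Mirlet7a-2 and Mir125b-1, in an exon each. Mature miR-125b-5p is the same from both of its hairpins, so its value cannot be divided between chromosomes 9 and 16.

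Each array reports a total gene signal per miRNA, a summed brightness in arbitrary units, and the deposited values are log2 signals after quantile normalization between arrays. Between 258 and 287 of 696 mouse miRNAs were detected per array, and the table holds those detected on all 7. Before normalization the median log2 difference over the 252 miRNAs was -0.26 for Rb-depleted primary minus control cells, -0.46 for Rb-depleted secondary minus control cells, and -0.18 between the secondary and primary Rb-depleted cells. All normalized differences are relative to these shifts. The 4 arrays of primary cells and secondary replicate 1 lay on one slide, and secondary replicates 2 and 3 on another. Of the mesenchymal marker miRNAs, 5 of 5 were detected on all arrays, with summed signals of 10028 to 10848 in control, 7436 to 8850 in Rb-depleted primary and 9338 to 10761 in secondary cells, whereas 0 of 5 epithelial and 0 of 4 blood markers were detected on any array. Of 4 skeletal muscle markers, 1 was detected on all arrays, and the summed signal of the list ran from 46.6 to 47.3 in control, 28.1 to 44.1 in Rb-depleted primary and 13.2 to 36.7 in secondary cells. The part of these lists in the differences below was not tested. The arrays are independent experiments per the series description, and p-values measure the spread between them.

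miR-125b-5p was by far the brightest member. Its signal was 19431 and 22347 in control cells, 20524 and 18829 on the Rb-depleted primary arrays and 18932, 16274 and 17422 in the secondary cells. It held between 87.1% and 89.2% of the summed signal of the 7 members, which together made up 4.05% to 4.90% of the signal of the whole table. Signals of different miRNAs depend on their probes as well as on their amounts, so these shares describe brightness. The other main arms were close to one another, with signals from 362 (miR-99a) to 891 (miR-100), and the lesser arms were dim, at 18.8 to 50.9 for miR-125a-3p and 8.60 to 22.6 for miR-99b*. The error that the scanner software gives to a total signal ran from 7.29% to 8.74% of the signal for the main arms, and reached 11.8% for miR-125a-3p and 19.1% for miR-99b*.

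**Figure D1:**
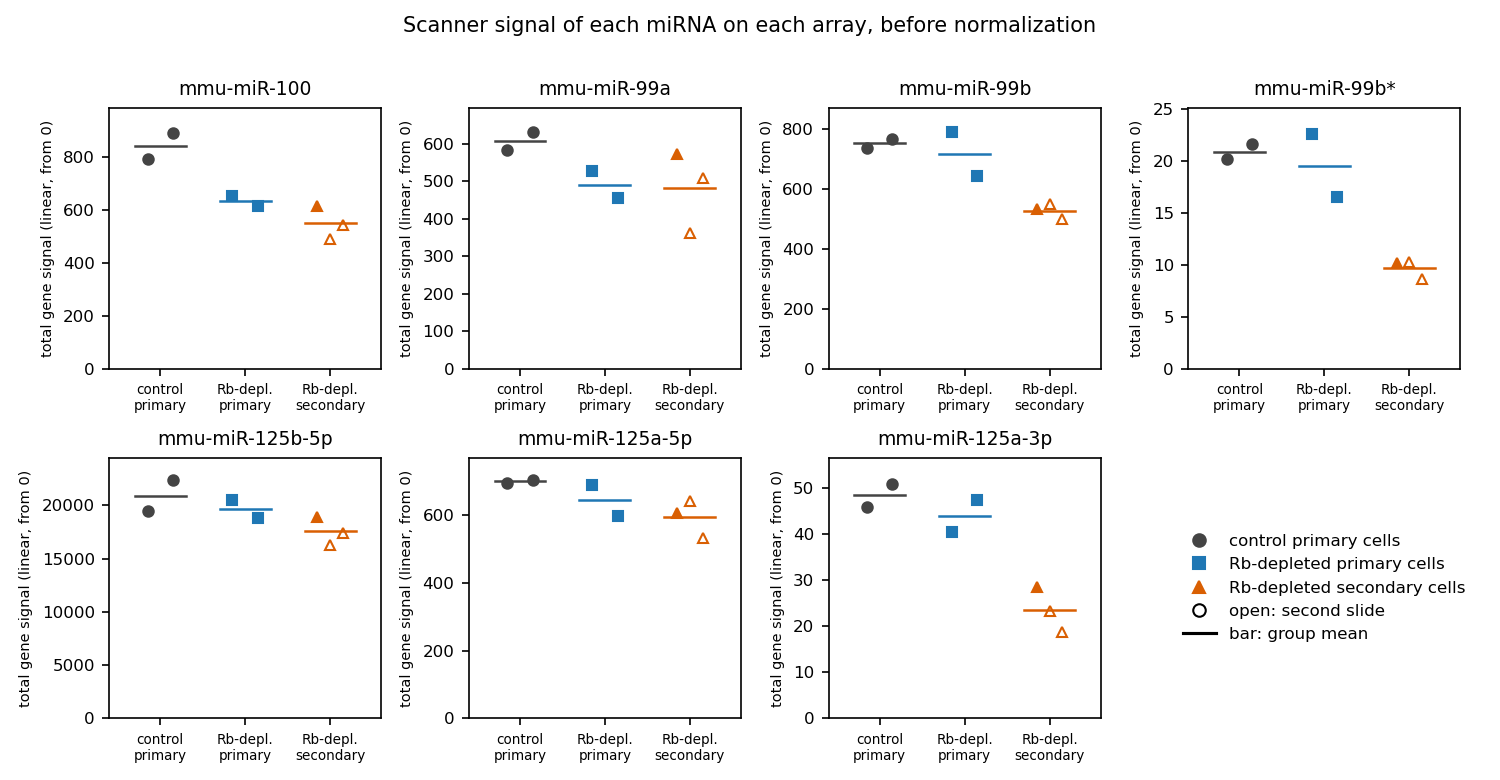
Total gene signal of each of the 7 miRNAs on each array before normalization (arbitrary brightness units, linear axes from 0 with a scale of its own per panel). Points are arrays, open points lie on the second slide and bars are group means; miR-99b* and miR-125a-3p show secondary arrays between 8.60 and 28.7, below every array of primary cells.

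Across the 3 groups, 2 of the 7 members, miR-125a-5p and miR-99b*, passed the moderated F-test of limma at a Benjamini-Hochberg adjusted p of 0.1, beside 109 of all 252 miRNAs (43.3%). In Rb-depleted primary minus control cells 0 of 7 members were called at an adjusted p of 0.05, beside 4 of 252 (1.59%, of which 0.397% higher and 1.19% lower), and 0 of 7 had an unadjusted p under 0.05, beside 64 of 252. In Rb-depleted secondary minus control cells 1 of 7 was called, miR-125a-5p, beside 57 of 252 (22.6%), of which 33 were higher (13.1%) and 24 lower (9.52%). The Dunnett test, run on limma's moderated t statistics and without adjustment across miRNAs, called the same member alone in that comparison, beside 74 of 252. It called 0 of 7 in primary minus control cells, beside 50 of 252. In secondary minus primary Rb-depleted cells 0 of 7 were called, beside 51 of 252 (20.2%, of which 12.7% higher and 7.54% lower), and 3 of 7 (miR-99b, miR-99b* and miR-125a-3p) had an unadjusted limma p under 0.05, as did 102 of 252. The median log2 difference of the members in these comparisons was 0.15, -0.05 and 0.00, against 0.01, 0.03 and 0.02 over the table. Without normalization the difference of all 7 members was negative in each comparison, beside 211, 220 and 172 of 252 miRNAs. The first 2 comparisons share the control arrays, and the last shares the Rb-depleted primary arrays with the first.

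The groups did not overlap for 4 members in primary minus control cells, 3 of them higher (table, 31.0%) and 1 lower (26.6%). In secondary minus control cells this was so for 3 members, beside 52.0% of the table, 1 of them higher (29.8%) and 2 lower (22.2%). In secondary minus primary cells it was so for 4 members, beside 51.2%, 1 of them higher (27.0%) and 3 lower (24.2%). With groups this small, a lack of overlap was common in the table.

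**Figure D2:**
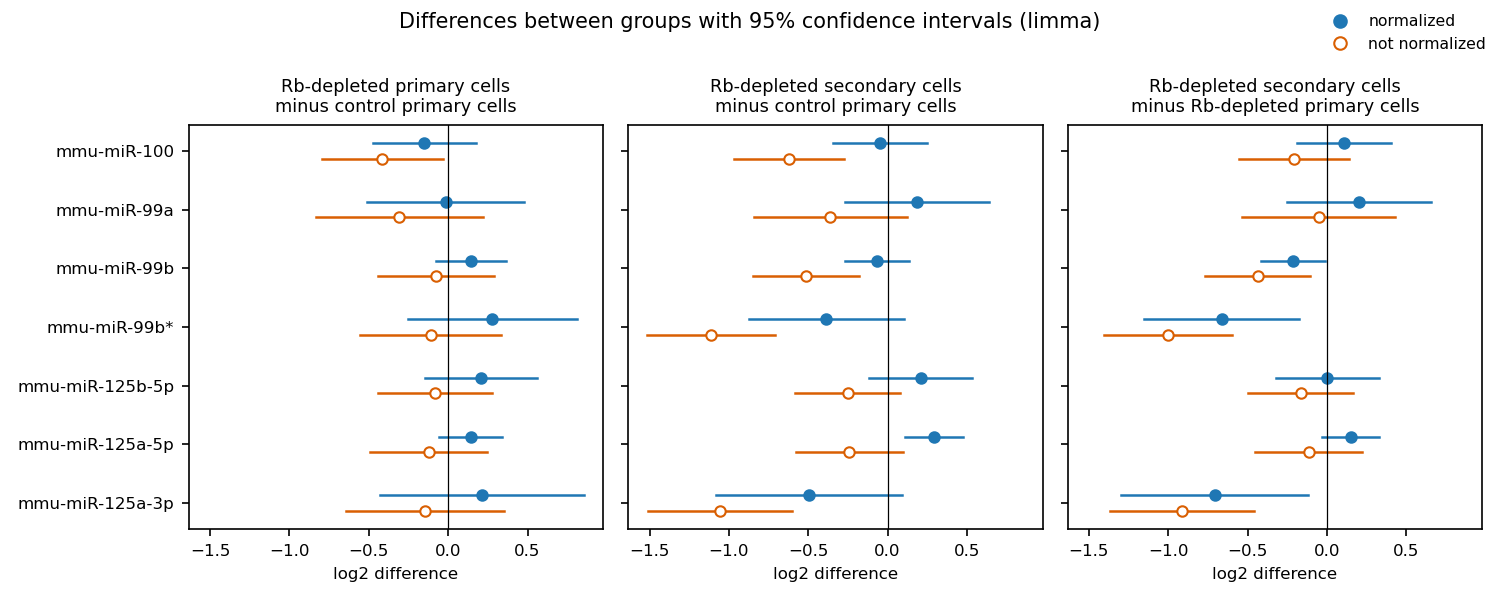
Log2 differences between groups for each of the 7 miRNAs with 95% confidence intervals from limma, for the deposited normalized values (filled) and the signals without normalization (open). Of the normalized intervals in the middle panel, that of miR-125a-5p (0.11 to 0.47) lies above 0, and its value without normalization, -0.24, lies on the other side.

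In the miR-125 family, miR-125a-5p had normalized log2 values of 9.16 and 9.10 in control cells, 9.30 and 9.25 in primary Rb-depleted cells and 9.48, 9.42 and 9.37 in secondary cells. The 3 groups did not overlap and rose in the order control, primary, secondary, as was so for 11 of 252 miRNAs (4.37%). The share with the falling order was not counted. The secondary cells were higher than the control cells by 0.29 on the log2 scale (SE 0.072, limma adjusted p = 0.0402), and higher than the primary Rb-depleted cells by 0.15 (SE 0.072, limma adjusted p = 0.19). The rise was relative to the other miRNAs of an array. Before normalization the signals were 695 and 704, then 689 and 598, then 607, 642 and 532, and the log2 difference of secondary minus control cells was -0.24 (SE 0.15, limma adjusted p = 0.197), less negative than the table's median of -0.46. The normalized call was made in 5 of 18 alternatives. It was also lost with scaling to the 75th percentile (0.21, limma adjusted p = 0.313), with slide as a term (0.35, limma adjusted p = 0.0916), with a floor of 1 over all mouse miRNAs (limma adjusted p = 0.0549), with trend and robust moderation (limma adjusted p = 0.0556), with only 2 groups in the fit (limma adjusted p = 0.0617), and on leaving out any 1 array other than secondary replicate 2 (0.26 to 0.32, limma adjusted p from 0.0617 to 0.138).

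miR-125b-5p, which shares its seed, had only 2 distinct normalized values, 13.81 on control replicate 1 and 14.23 on the 6 other arrays. Quantile normalization gives each rank 1 value, and miR-125b-5p was the fifth brightest table miRNA on the first array and the fourth on the others, so a difference smaller than a step in rank could not be seen. Its log2 difference was 0.21 in primary minus control cells (SE 0.14, limma adjusted p = 0.407) and 0.21 in secondary minus control cells (SE 0.13, limma adjusted p = 0.299), and both rested on that control array: without it they were 0. Without normalization, secondary minus control cells gave -0.25 (95% interval -0.58 to 0.08). Its dimmer probe gave -0.55 there and its brighter probe -0.19.

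miR-351-5p, the other carrier of the miR-125 seed, was near the detection limit. Control arrays gave total gene signals of 9.26 and 8.05, and Rb-depleted primary arrays 6.16 and 4.85. It was detected on 1 of 3 arrays of secondary cells, at 3.81. It is outside the table and was not tested.

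In the miR-99/100 family, no main arm was called in any comparison. miR-100 had normalized log2 values of 9.37 and 9.48 in control cells, 9.25 and 9.30 in primary Rb-depleted cells and 9.53, 9.19 and 9.42 in secondary cells. Both primary Rb-depleted arrays lay below both control arrays, as did 67 of 252 miRNAs (26.6%), and the difference was -0.15 (SE 0.13, limma adjusted p = 0.499). Its signals were 793 and 891 in control cells, 650.4 and 612 in primary and 615, 490.1 and 542 in secondary Rb-depleted cells. Without normalization the difference of secondary minus control cells was -0.62 (SE 0.15, limma adjusted p = 0.0145), beside 114 of 252 miRNAs called on that scale. Its 2 probes gave -0.64 and -0.61, against the table's median of -0.46. After normalization, secondary minus control cells differed by only -0.05 (SE 0.12, limma adjusted p = 0.803).

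miR-99a, 1 base apart from miR-100, had normalized log2 values of 8.87 and 8.96, then 8.84 and 8.96, then 9.34, 8.76 and 9.19. The secondary arrays spanned the values of both other groups, with replicate 2 lowest of all 7 arrays and replicate 1 highest, and their SD of 0.30 compares with 0.06 and 0.09 in control and Rb-depleted primary cells. The differences from control cells were -0.02 (SE 0.20, limma adjusted p = 0.978) in primary and 0.18 (SE 0.18, limma adjusted p = 0.507) in secondary Rb-depleted cells.

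miR-99b, from the chromosome 17 polycistron, had normalized log2 values of 9.30 and 9.25 in control cells, 9.47 and 9.37 in primary Rb-depleted cells and 9.16, 9.30 and 9.16 in secondary cells. Every secondary array lay below both Rb-depleted primary arrays, as did 61 of 252 miRNAs (24.2%), and the difference was -0.21 (95% interval -0.41 to -0.01, limma adjusted p = 0.107). Secondary minus control cells differed by -0.07 (SE 0.081, limma adjusted p = 0.584). Without normalization the latter was -0.51 (SE 0.14, limma adjusted p = 0.024), close to the table's median of -0.46.

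**Figure D3:**
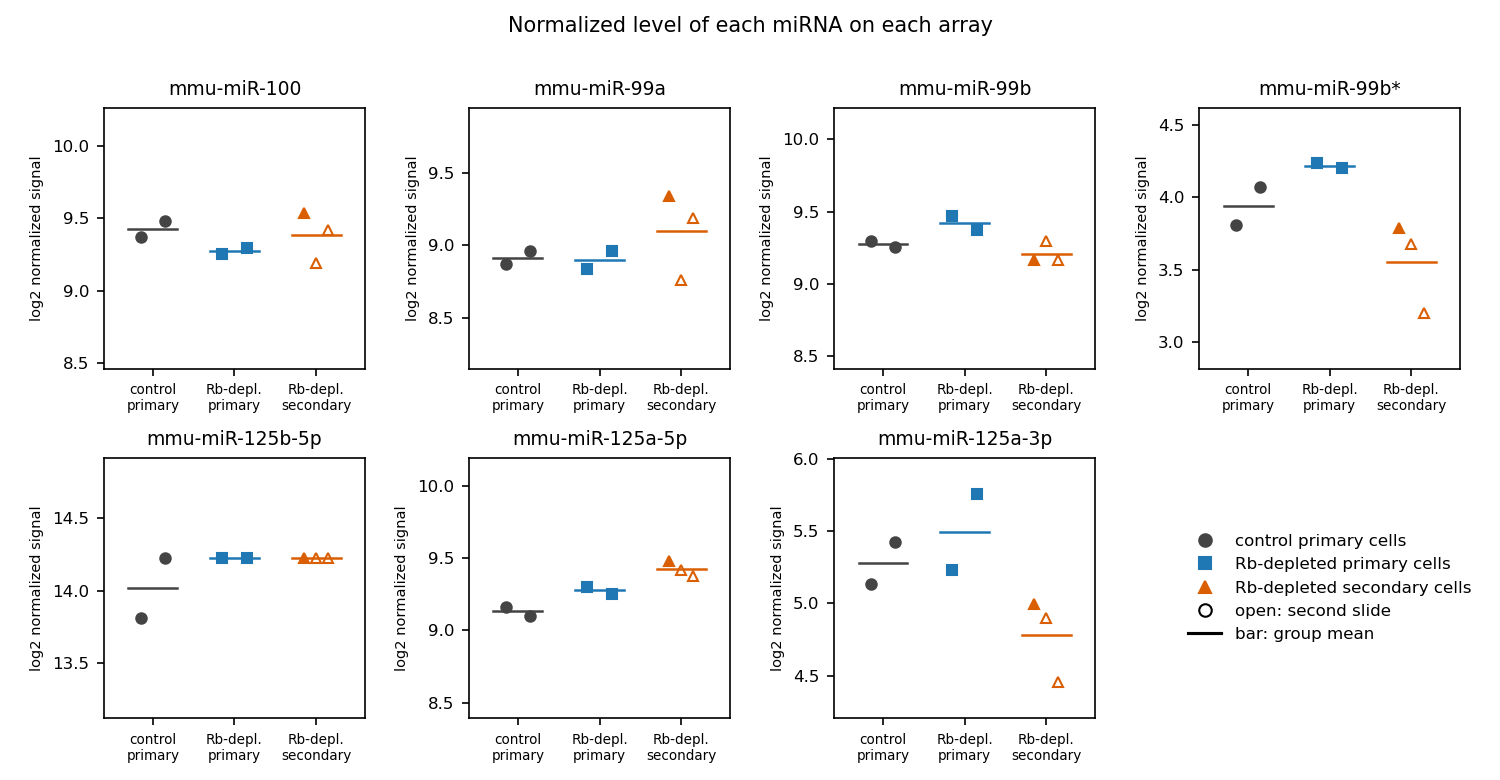
Normalized log2 signal of each of the 7 miRNAs on each array; every panel spans 1.8 log2 units. Points are arrays, open points lie on the second slide and bars are group means; miR-125a-5p steps up from 9.10 to 9.48 without overlap between groups, and miR-125b-5p takes only the values 13.81 and 14.23.

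The lesser arms had the widest differences of the family, and for them the way a total signal is made mattered. miR-99b* had normalized log2 values of 3.81 and 4.07 in control cells, 4.24 and 4.20 in primary Rb-depleted cells and 3.79, 3.68 and 3.20 in secondary cells. Both primary Rb-depleted arrays lay above both control arrays, as was so for 31.0% of the table. All 3 secondary arrays lay below both control arrays, as was so for 22.2%. The limma difference of secondary minus primary Rb-depleted cells was -0.66 (95% interval -1.15 to -0.18, adjusted p = 0.0658), and that of secondary minus control cells was -0.39 (SE 0.20, adjusted p = 0.211).

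The scanner software adds up only the probes of a miRNA that it counts on that array. For miR-99b* it summed 2 of the 4 probes on each of the 4 arrays of primary cells and 1 on each of the 3 arrays of secondary cells, so the totals do not hold the same probes. The probe common to all 7 arrays read 14.9 and 14.1 in control cells, 16.4 and 12.6 in primary Rb-depleted cells and 10.2, 10.3 and 8.60 in secondary cells. When every miRNA was restricted to the probes summed on all 7 arrays and normalized again, miR-99b* took values of 3.47 and 3.50, then 4.02 and 3.91, then 3.65, 3.65 and 3.30. Secondary arrays then lay on both sides of the control arrays, with a difference of 0.05 (SE 0.13, limma adjusted p = 0.791) in place of -0.39, whereas secondary minus primary Rb-depleted cells remained negative at -0.43 (SE 0.13, limma adjusted p = 0.0679). When instead all 4 probes were summed on every array, the secondary arrays took values of 3.88, 4.03 and 3.49, and replicate 2 lay just above control replicate 1. The groups thus overlapped there too, but the difference was -0.31 (SE 0.18, limma adjusted p = 0.256), near the deposited one, and that of secondary minus primary Rb-depleted cells was -0.65 (SE 0.18, limma adjusted p = 0.0507). The size and sign of the difference between secondary and control cells thus depended on which probes were used. Such a change of probes between arrays occurred for 43 of the 252 miRNAs, 2 of them members.

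miR-125a-3p, the other of these, was summed over 4 probes on 3 arrays of primary cells and over 3 probes on the first Rb-depleted primary array and all secondary arrays. Its normalized log2 values were 5.13 and 5.42 in control cells, 5.23 and 5.75 in primary Rb-depleted cells and 4.99, 4.90 and 4.46 in secondary cells. All 3 secondary arrays lay below all 4 arrays of primary cells. Of the table, 22.2% lay below the control arrays and 24.2% below the Rb-depleted primary arrays in this way, each counted singly. The limma difference of secondary minus primary Rb-depleted cells was -0.71 (95% interval -1.30 to -0.12, adjusted p = 0.0808), and that of secondary minus control cells was -0.49 (SE 0.24, adjusted p = 0.183).

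With the same 3 probes on every array, miR-125a-3p kept this pattern. Its values were 5.02 and 5.23, then 5.29 and 5.63, then 4.86, 4.79 and 4.44, and secondary minus primary Rb-depleted cells differed by -0.76 (SE 0.17, limma adjusted p = 0.0335), past the threshold, beside 54 of 252 miRNAs called in that fit. Secondary minus control cells differed by -0.43 (SE 0.17, limma adjusted p = 0.132). With all 4 probes summed on every array the differences were -0.68 (SE 0.19, limma adjusted p = 0.0571) and -0.42 (SE 0.19, limma adjusted p = 0.168), so the call rested on the choice of probes. Without normalization the 3 probes common to all arrays gave -0.72 to -1.20 in secondary minus control cells, against the table's median of -0.46. With slide as a term in the fit of the deposited values, which compares secondary replicate 1 with the primary cells on its own slide, the difference of secondary minus primary Rb-depleted cells was -0.50 (SE 0.32, limma adjusted p = 0.352).

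**Figure D4:**
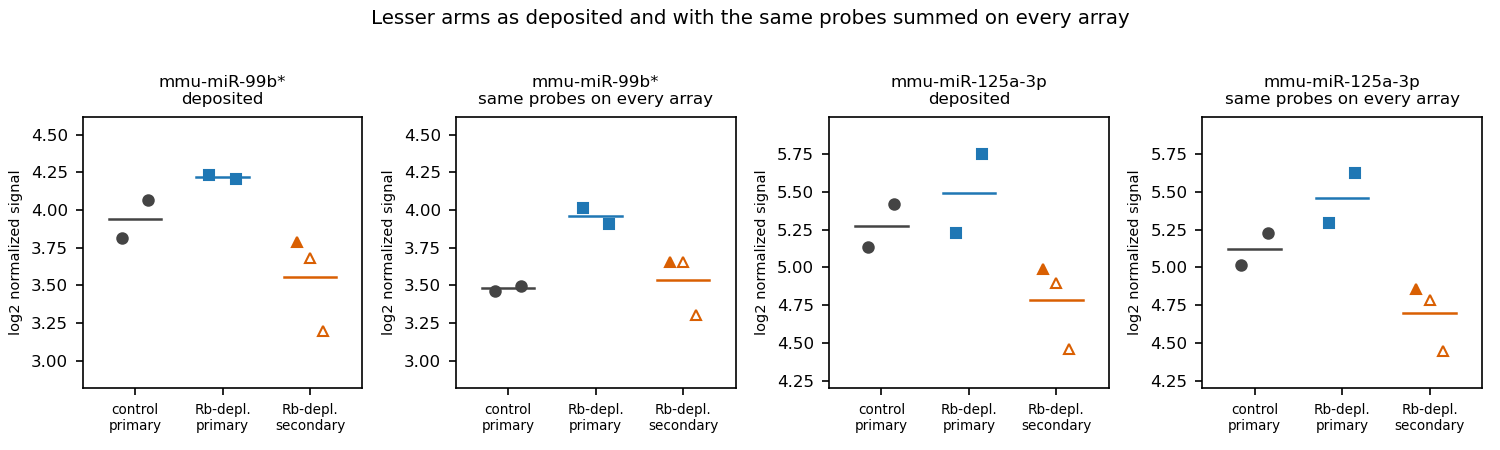
Normalized log2 signal of miR-99b* and miR-125a-3p on each array, as deposited and after every miRNA was restricted to the probes summed on all 7 arrays. With the same probes, the miR-99b* secondary arrays (3.30 to 3.65) no longer all lie below the control arrays (3.47 and 3.50), while the miR-125a-3p secondary arrays (4.44 to 4.86) still lie below every array of primary cells.

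Differences between miRNAs of the same array are free of any single scaling factor, and 9 of them were compared between each pair of groups (27 tests) by a two-sided exact permutation test, which cannot give p under 0.33 for 2 against 2 arrays or under 0.1 for 3 against 2. No comparison could therefore pass the threshold, and the smallest adjusted p over the family was 0.386. How often other pairs of miRNAs separate the groups was not counted, so a lack of overlap below is only a description. For single miRNAs of the table the groups did not overlap in 57.5% (primary minus control), 52.0% (secondary minus control) and 51.2% (secondary minus primary). Within the Mir125a hairpin, miR-125a-3p minus miR-125a-5p was -4.03 and -3.68 on control arrays, -4.07 and -3.50 on Rb-depleted primary arrays and -4.49, -4.52 and -4.92 on secondary arrays. The lesser arm thus stood lower relative to the main arm on every secondary array than on any array of primary cells. The change was -0.79 against control cells (exact p = 0.1) and -0.86 against primary Rb-depleted cells (exact p = 0.1), and with the same probes on every array the changes were -0.72 and -0.91.

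Within the Mir99b hairpin, miR-99b* minus miR-99b was -5.48 and -5.18, then -5.23 and -5.17, then -5.38, -5.62 and -5.96. Secondary and control arrays overlapped here. The change of secondary minus control cells was -0.32 (exact permutation p = 0.4), and with the same probes it was 0.12.

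Between neighbours of the chromosome 17 polycistron, miR-99b stood above miR-125a-5p on all 4 arrays of primary cells, by 0.13, 0.15, 0.17 and 0.12, and below it on all 3 secondary arrays, with differences of -0.32, -0.12 and -0.21. The change was -0.36 against either group of primary cells (exact p = 0.1 for each), and -0.27 and -0.32 without normalization. let-7e minus miR-125a-5p changed by less, -0.08 against control cells (exact p = 0.6) and -0.16 against primary Rb-depleted cells (exact p = 0.1).

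On chromosome 9, miR-100 minus let-7a was -3.23 and -3.24 in control cells, -3.47 and -3.73 in primary Rb-depleted cells and -3.60, -3.77 and -3.61 in secondary cells. All 5 arrays of Rb-depleted cells lay below both control arrays. The change was -0.36 in primary (exact p = 0.33) and -0.42 in secondary Rb-depleted cells (exact p = 0.1), and without normalization -0.34 and -0.38. Mature let-7a comes from further hairpins as well, so this is not a ratio within the polycistron alone. On chromosome 16, miR-99a minus let-7c was -3.49 and -3.46, then -3.50 and -3.46, then -3.08, -3.72 and -3.17, with the secondary arrays on both sides of the others. Whether mature let-7c also comes from hairpins other than Mirlet7c-1 was not examined. Of the 9 let-7 family miRNAs of the table, 0 were called by limma in each comparison, with 0, 3 and 1 at an unadjusted p under 0.05, beside 64, 92 and 102 of 252. The Dunnett test called 3 of the 9 higher in secondary than in control cells, beside 43 of 252.

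**Figure D5:**
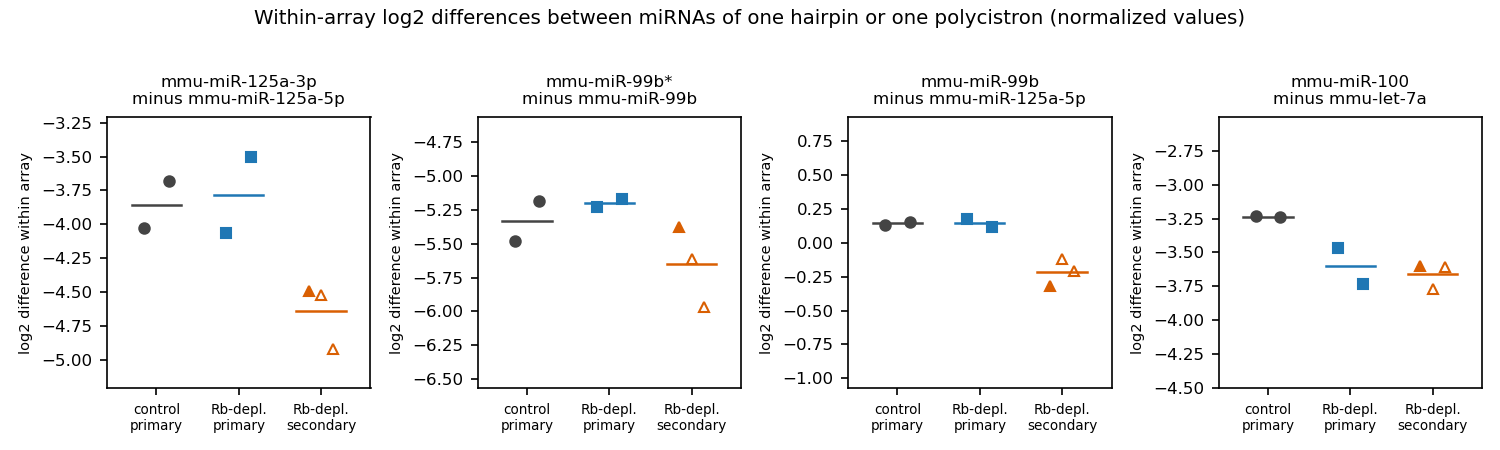
Difference in normalized log2 signal between pairs of miRNAs of one hairpin or one polycistron, by array; every panel spans 2 log2 units. Points are arrays, open points lie on the second slide and bars are group means; miR-125a-3p minus miR-125a-5p lies between -4.07 and -3.50 on the arrays of primary cells and between -4.92 and -4.49 on those of secondary cells.

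The miRNAs whose normalized pattern over the 7 arrays was most like that of each member are given as a description, since arrays share their group and slide. For miR-99a these were miR-10a (Pearson r = 0.98), miR-22* (0.97) and miR-26b (0.97), and for miR-100 miR-219 (0.88), miR-26b (0.87) and miR-10a (0.81). For miR-125a-5p they were miR-212 (0.94), miR-30d (0.93) and miR-29b (0.93), and for miR-99b miR-182 (0.95), miR-1906 (0.94) and miR-17 (0.88). For miR-99b* they were miR-193* (0.93), miR-125a-3p (0.91) and miR-31 (0.90), and for miR-125a-3p miR-99b* (0.91), miR-2134 (0.91) and miR-674 (0.90). Both lesser arms had probes that changed between arrays. miR-125b-5p, with its 2 distinct values, was most like let-7b (0.98), miR-30e* (0.91) and let-7d (0.89). Within the seed group, miR-99a and miR-100 had r = 0.81 over the 7 arrays (0.83 without normalization), whereas miR-99a and miR-99b had r = -0.74, which turned to 0.45 without normalization. The sequences of miR-10a and miR-10b are shown for comparison, since they resemble the family outside the seed and differ from it within.
mmu-miR-10a: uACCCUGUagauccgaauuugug
mmu-miR-10b: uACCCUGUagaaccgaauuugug
The normalized log2 values of miR-10a were 8.28 and 8.55, then 8.38 and 8.46, then 9.02, 8.13 and 8.87, and like miR-99a it was lowest on secondary replicate 2 and highest on secondary replicate 1. Those of miR-10b were 8.59 and 8.76, then 8.66 and 8.66, then 8.66, 8.51 and 8.28, lowest on secondary replicate 3.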

How the data were processed

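MiRNAs were measured on 1-colour (Cy3) Agilent mouse miRNA arrays, and the groups come from the sample titles. The authors' table holds log2 signals, quantile-normalized in GeneSpring, and they also deposited the scanner's intensity values of each array (total gene signal, total probe signal and their errors). The submitters' notes name Agilent Feature Extraction 10.7.3.1 and the file headers 11.0.1.1. Quantile normalization of 718 scanner features with a floor of 0.1 returned the deposited values to within 3.24e-06. The 11 control rows were left out.

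The members and lists were chosen with earlier results of these data known. limma 3.58.1 (R 4.3.3, statmod 1.5.0) was fitted to all 252 miRNAs with 3 group means, with Benjamini-Hochberg thresholds of 0.1 (F-test) and 0.05 (pairs of groups), and was tested on simulated data. The exact permutation p (scipy 1.17.1) is the share of arrangements with an absolute difference at least as large. All 7 members and their let-7 neighbours were named, with the 3 most alike miRNAs each. The probes summed were found by matching probe signals to totals. Alternatives were other scalings, a floor of 1, the replicate number as a block, slide as a term, trend and robust moderation, and 2 groups only. Further ones were classical analysis of variance, the Dunnett test on limma's moderated t statistics and each array left out. Restriction to the probes summed on every array, and summing all probes, were chosen on seeing the probe data. The number of arrays limits the precision.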

Additional observations from a re-analysis of the deposited data

Results flagged for a closer look

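miR-99b* was flagged because, as deposited, both Rb-depleted primary arrays lay above both control arrays, and all 3 secondary arrays lay below them. Taken singly, the first was so for 31.0% of the table and the second for 22.2%. The share with both was not counted. Neither difference from control cells was called: 0.28 in primary (limma adjusted p = 0.449) and -0.39 in secondary cells (limma adjusted p = 0.211). The highest secondary array, at 3.79, lay only just below the lower control array, at 3.81. Without normalization both differences from control cells were negative, -0.11 in primary and -1.11 in secondary cells. The difference itself, secondary minus primary Rb-depleted cells, was -0.66 on the log2 scale and did not pass limma's test (adjusted p = 0.0658). With the same probe on every array the secondary arrays no longer all lay below the control arrays, and the difference was -0.43 (limma adjusted p = 0.0679). With all probes summed on every array the secondary and control arrays overlapped as well. The difference of secondary minus primary Rb-depleted cells was then -0.65 (limma adjusted p = 0.0507).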

How the results depend on the processing

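Of 371 alternative fits of single members, 330 kept the direction and the side of the threshold, 11 newly passed it, 12 no longer passed it and 18 changed sign. As deposited only miR-125a-5p in secondary minus control cells was called, so elsewhere the same side meant staying uncalled. All 12 losses were of that call. Some alternatives, such as the Dunnett test or leaving out an array of the third group, cannot move a difference. The 330 is therefore no measure of stability. The number of arrays and, for miR-99b* and miR-125a-3p, a signal near background with a changing set of probes limit what can be seen. The cause of the other changes was not tested.

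Without normalization the count of called miRNAs was 27 in primary minus control cells (4 as deposited) and 114 in secondary minus control cells (57 as deposited). Of the members, 4 passed the F-test (2 as deposited), beside 148 of 252. In secondary minus control cells 4 were called lower (miR-99b, miR-99b*, miR-100 and miR-125a-3p), beside 109 of 252, and in secondary minus primary cells 2 (miR-99b* and miR-125a-3p), beside 35 of 252. The sign turned, in primary minus control cells, for miR-99b (-0.076), miR-99b* (-0.11), miR-125a-5p (-0.12), miR-125a-3p (-0.14) and miR-125b-5p (-0.084). It turned in secondary minus control cells for miR-99a (-0.36), miR-125a-5p (-0.24) and miR-125b-5p (-0.25), and in secondary minus primary cells for miR-99a (-0.052), miR-100 (-0.21) and miR-125a-5p (-0.12). Among within-array differences it turned for miR-99a minus let-7c in secondary minus control cells (-0.20), and in primary minus control cells for miR-99b* minus miR-99b (-0.035) and miR-125a-3p minus miR-125a-5p (-0.020).

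Scaling to the 75th percentile gave 0 calls in primary minus control and 29 in secondary minus control cells. It called 1 member, miR-99b*, lower in secondary than in primary Rb-depleted cells (-0.78, limma adjusted p = 0.0247) and lower than in control cells (-0.66, limma adjusted p = 0.0316), beside 13 and 20 of 252 called lower. Quantile normalization of the table alone called 2 members in secondary minus control cells, miR-125a-5p and miR-99b*, beside 56 of 252, and 1 in secondary minus primary cells, miR-99b*, beside 53 of 252. A floor of 1 with all mouse miRNAs gave 8 calls in primary minus control cells, 1 member in the F-test and 0 members in secondary minus control cells. Slide as a term left 24 miRNAs and 0 members in the F-test, then 0, 6 and 0 calls in the primary minus control, secondary minus control and secondary minus primary comparisons, with 0 members, and miR-100 turned to 0.11 in secondary minus control cells. Trend and robust moderation called 0 members in secondary minus control cells (miR-125a-5p, limma adjusted p = 0.0556). Fitting only 2 groups at a time gave 0 calls in primary minus control and 19 in secondary minus primary cells, and 0 members in secondary minus control cells. Classical analysis of variance passed 62 miRNAs and 1 member, and the Dunnett test called 50 in primary minus control cells.

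With the same probes on every array 3 members (miR-125a-3p, miR-125a-5p and miR-99b*) passed the F-test, beside 108 of 252. In secondary minus control cells 1 member, miR-125a-5p, was called, beside 62 of 252, and in secondary minus primary cells 1, miR-125a-3p, beside 54 of 252. The sign turned in secondary minus control cells for miR-99b* (0.053) and for miR-99b* minus miR-99b (0.12). With all probes summed the F-test passed 3 members beside 108 of 252, and 1 member, miR-125a-5p, was called in secondary minus control cells, beside 62 of 252, and 0 in secondary minus primary cells, beside 56 of 252.

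The deviations of same-numbered arrays from their group means correlated at 0.134, 0.074, -0.084, 0.044 and -0.141, and those of different-numbered arrays at -0.189 to 0.189. In a group of 2 arrays the deviations mirror each other, so these values cannot decide whether the replicate numbers pair the arrays. With the replicate number as a block 6 miRNAs and 0 members passed the F-test, 0, 4 and 0 were called in the 3 comparisons, and miR-125a-5p in secondary minus control cells gave 0.32 (limma adjusted p = 0.148).

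Leaving out 1 array at a time, the F-test passed 33 to 124 miRNAs and 0 to 3 members. The calls ran from 0 to 22 in primary minus control cells, from 1 (without control replicate 1) to 74 in secondary minus control cells and from 2 (without Rb-depleted primary replicate 2) to 66 in secondary minus primary cells, with 0 to 1 members in secondary minus control cells and 0 members in the others. Where a group is left with 1 array, it is assumed to vary like the others. In primary minus control cells the sign turned within these ranges for miR-99a (-0.078 to 0.045), miR-125a-3p (-0.047 to 0.48), miR-125a-5p minus miR-125b-5p (-0.30 to 0.17), miR-99b minus miR-125a-5p (-0.024 to 0.030), miR-99a minus let-7c (-0.022 to 0.017), miR-99b* minus miR-99b (-0.016 to 0.28) and miR-125a-3p minus miR-125a-5p (-0.21 to 0.36). It turned in secondary minus control cells for miR-100 (-0.12 to 0.050) and miR-125a-5p minus miR-125b-5p (-0.15 to 0.32), and in secondary minus primary cells for miR-100 minus let-7a (-0.19 to 0.070).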
